A study of Homo sapiens with 2 samples.

Results

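Acetylation of histone H3 at lysine 27 (H3K27ac) was examined at 9 genes that encode subunits of deacetylase corepressor complexes: NCOR1, TBL1X, TBL1XR1, GPS2, SIN3A, RCOR1, KDM1A, CHD4 and MTA2. The RefSeq table used here holds 20037 protein-coding genes in all. The 9 were chosen by the complex they belong to, with earlier results of these data known, and they leave out other subunits. A peak was assigned to a gene when it lay inside its RefSeq record or within 50 kb of it. By this rule the 9 genes held 39 of the 19671 peaks in the ERG list and 24 of the 9161 in the Vector list.

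The cells of both libraries were F36P, a human erythroleukaemia line. The ERG library was made from cells transduced with the plasmid MSCV-PIG-AM-ERG, labelled ERG overexpression (ERG is an ETS-family transcription factor), and the Vector library from cells transduced with the empty plasmid MSCV-PIG, labelled WT. Both populations had gone through 4 days of selection in 1 µg/ml puromycin, and the meaning of AM is not given in the labels. Each group held 1 library, so there was no spread between samples, no test between groups and no p-value. The differences given are thus between single libraries, and every interval covers counting error only.

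Deacetylase corepressors are multi-subunit complexes that transcription factors recruit to remove acetyl groups from histones and so lower transcription. In the NCoR complex, the scaffold NCOR1 activates the deacetylase HDAC3, and class IIa deacetylases such as HDAC7 of the series title are known to act through it. The SIN3, CoREST and NuRD complexes carry HDAC1 or HDAC2 instead. CoREST adds the histone demethylase KDM1A, which erythroid repressors such as GFI1B recruit, and NuRD adds the nucleosome remodeller CHD4. H3K27ac marks active promoters and enhancers, and at these genes it bears on their own regulation, not on the activity of the complexes they encode.

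Sequences beside the starts are shown first, as the 250 bases before the primary listed start of 5 of the 9 genes (RefSeq, GRCh38.p14, whose chromosome coordinates are those of hg38). Over the 9 genes, ERG-library peaks overlapped this window at 5 and Vector-library peaks at 2, so the peaks compared below lay partly or wholly outside it. Each runs 5′ to 3′ along the gene's own strand, and capitals mark the ETS motif CCGGAA on either strand (TTCCGG on the other). The shorter GGAA was not searched for and is not marked. NCOR1, GPS2 and MTA2 are shown because they hold CCGGAA. RCOR1 is shown because 1 peak of the ERG library spanned a start that 2 Vector-library peaks flanked. SIN3A is shown because a start peak was found in the ERG library alone.
NCOR1, chr17:16215535-16215784, minus strand: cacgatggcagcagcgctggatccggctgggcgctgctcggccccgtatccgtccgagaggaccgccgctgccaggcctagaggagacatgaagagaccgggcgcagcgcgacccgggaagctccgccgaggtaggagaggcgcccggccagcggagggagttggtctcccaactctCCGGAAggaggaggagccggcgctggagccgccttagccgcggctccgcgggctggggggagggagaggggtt
GPS2, chr17:7315361-7315610, minus strand: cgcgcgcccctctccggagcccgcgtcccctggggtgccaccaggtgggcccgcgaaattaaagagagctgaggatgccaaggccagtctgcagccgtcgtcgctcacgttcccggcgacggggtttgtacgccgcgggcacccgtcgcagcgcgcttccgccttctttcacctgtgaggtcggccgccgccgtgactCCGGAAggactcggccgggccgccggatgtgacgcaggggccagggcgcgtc
MTA2, chr11:62601866-62602115, minus strand: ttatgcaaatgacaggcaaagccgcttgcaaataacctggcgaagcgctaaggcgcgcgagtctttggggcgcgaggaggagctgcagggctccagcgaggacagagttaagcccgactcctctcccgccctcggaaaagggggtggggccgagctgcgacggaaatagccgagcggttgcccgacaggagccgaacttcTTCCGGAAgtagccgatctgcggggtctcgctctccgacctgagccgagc
RCOR1, chr14:102592399-102592648, plus strand: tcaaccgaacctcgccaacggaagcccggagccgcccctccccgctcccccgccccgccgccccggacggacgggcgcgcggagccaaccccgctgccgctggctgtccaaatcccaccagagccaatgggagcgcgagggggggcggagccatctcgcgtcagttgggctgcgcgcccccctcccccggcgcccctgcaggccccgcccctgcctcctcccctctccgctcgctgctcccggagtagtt
SIN3A, chr15:75455816-75456065, minus strand: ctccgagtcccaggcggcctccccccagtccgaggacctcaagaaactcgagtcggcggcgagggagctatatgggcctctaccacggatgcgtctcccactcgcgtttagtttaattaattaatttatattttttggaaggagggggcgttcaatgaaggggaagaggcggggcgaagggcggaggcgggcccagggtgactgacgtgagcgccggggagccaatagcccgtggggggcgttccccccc
The motif CCGGAA occurred in 4 of the 9 windows, against 19.2% of the windows of 15843 protein-coding genes with a listed start. CHD4 was the other gene with it, 163 to 158 bases before its listed start. That start lies 928 bp inside the record of CHD4, so its window is within the gene record. In MTA2 the motif CCGGAA occurred on both strands in overlapping copies, between 50 and 43 bases before the start. It lay 52 to 47 bases before the start in GPS2 and 73 to 68 bases before it in NCOR1. The GC box GGGCGG occurred in 6 of 9 windows (55.8% of all) and reached 5 copies in RCOR1 and 4, partly overlapping, in TBL1XR1. CCAAT occurred in RCOR1 and SIN3A (34.5% of all) and TATAAA in SIN3A only (9.35% of all). GATAA occurred in none (16.6% of all). All motifs were searched on both strands, and a match is a description of these letters only. The windows had a median G+C content of 72% over the 9 genes. It was 62% over all 15843 genes and 65.2% over the 5252 genes with a start peak in both libraries. Among the 9, TBL1X had the lowest, 52%, and TBL1XR1 the highest, 81.2%. The motif shares over all genes are not matched for G+C content, so no excess of a motif at the members can be read from them.

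The libraries themselves differed in depth and in peak number. The peak caller's fold and p-value together fix the number of fragments under a peak's summit and the local background, and they came out for 19667 peaks of the ERG list and 9146 of the Vector list. The genome-wide background, which is the lowest one in a list, was 2.31 fragments for ERG and 1.60 for Vector. Their ratio, 1.44, served to scale depth. Peaks are called shared where those of the 2 libraries overlapped by 1 bp or more. At shared peaks with 100 or more ERG-library fragments the ratio of summed fragments was 2.11, which was used as the other scale. These peaks were picked by their ERG-library fragments alone, which can raise this ratio. It was taken from shared peaks themselves, so shared peaks scaled by it lie near 1 in part by construction. Of 12 erythroid genes, 9 had a peak within 1 kb of an end of their record in both lists, against 30.2% of all protein-coding genes. ALAS2, of heme synthesis, had one in the ERG list alone. These 12 genes were added after their values were seen, so they are no independent check of the cell type. The erythroid genes SLC4A1 and HBG1 had none, and HBG1 is nearly identical to HBG2, which had one in both. None of 14 liver, neuron, epithelial and fibroblast genes had such a peak in either library.

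The starts of the corepressor genes were acetylated in both libraries, with 1 exception. A peak within 1 kb of a listed start was found in both libraries at 8 of the 9 genes, and at SIN3A in the ERG library alone. Among all 15843 genes with a listed start, 33.2% had such a peak in both lists and 16.1% in the ERG list alone. Counted at either end of the gene record, 8 members had a peak in both lists and 0 in the ERG list alone, against 30.2% and 15.6% of all protein-coding genes. The member without an end peak was TBL1XR1, whose listed start lies 4318 bp inside its record. SIN3A counted as both only through the start of its neighbour MAN2C1. With a −log10 q-value of at least 5 asked of both lists, TBL1X and GPS2 joined SIN3A with a start peak in the ERG list alone, so that 3 genes had one. With only as many top-ranked ERG-library peaks as the Vector library has, TBL1X and GPS2 instead had a start peak in the Vector list alone.

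**Figure D1:**
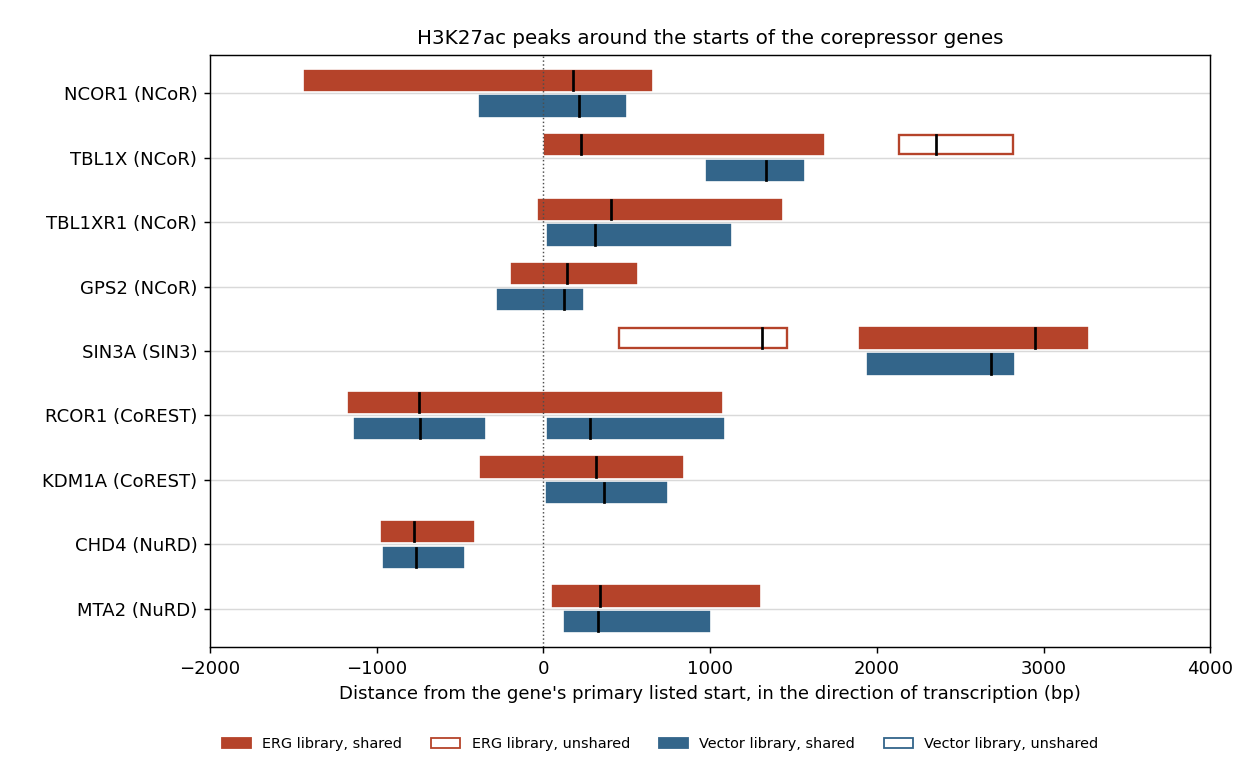
Peaks around the primary listed start of each of the 9 genes, plotted as distance from the start in bp, positive in the direction of transcription. Bars span the peaks (ERG library above, Vector library below), filled where they overlap a peak of the other library and open where they do not, and black ticks are summits. At RCOR1 a single ERG-library peak spans the start where the Vector library has 2 peaks on either side of it.

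The NCoR genes held both the weakest start peaks of the group and 1 of the stronger ones. NCOR1 lies on chromosome 17 from 16029157 to 16215534, on the minus strand, and encodes the scaffold of the complex. Its start peak spanned 16214888 to 16216965 with 59 summit fragments in the ERG library, and 16215042 to 16215913 with 33 in the Vector library. The ERG-library peak was 2.38 times as wide, with its summit 36 bp away. The wider peak also came within 1 kb of the start of PIGL, a gene transcribed away from NCOR1, which the Vector-library peak did not reach. Scaled by depth, the fragment ratio (ERG over Vector library, as for all ratios that follow) was 1.24 (95% interval 0.80 to 1.96). No peak lay within 1 kb of the second listed start, 16194639. The other peaks of the window were shared, inside ZSWIM7 with 33 against 25 fragments and the lowest ratio at any member, 0.91 (0.53 to 1.60), and at the starts of ZSWIM7 and TTC19 with 26 against 16.

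TBL1X and TBL1XR1 encode related WD40-repeat subunits that help exchange corepressors for coactivators. TBL1X, on chromosome X from 9463295 to 9719740, had an ERG-library peak of 1669 bp that began 12 bp after the start and reached 42 fragments. A Vector-library peak of 576 bp with 15 fragments lay inside it, from 9464275 to 9464850. Their summits were 1110 bp apart, so the scaled ratio of 1.94 (1.05 to 3.76) does not compare the same position. A further ERG-library peak, at 9465430 to 9466112 with 36 fragments, followed the second listed start (9465058) and had no Vector-library counterpart. The first start lay 12 bp before the first ERG-library peak and the second between both peaks, so neither start was itself covered.

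TBL1XR1, on chromosome 3 from 177019344 to 177201800, had the tallest start peak of the NCoR genes. It reached 114 fragments in the ERG library (177196056 to 177197508) against 53 in the Vector library (177196360 to 177197456), a scaled ratio of 1.49 (1.07 to 2.10). TBL1XR1 was also the member where the Vector library had the most peaks of its own. Its 2 unshared Vector-library peaks, the sole ones at the 9 genes, held 14 and 13 fragments over backgrounds of 2.04 and 2.40. The first lay inside the gene (177027179 to 177027496) and the other 30.2 kb from it (177232032 to 177232351). An unshared ERG-library peak inside the gene (177036173 to 177036484) was as weak, with 13 fragments over 3.22, and lay near the start of the antisense gene TBL1XR1-AS1.

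GPS2, a small subunit that binds the NCoR scaffold, has the shortest record of the 9, 2.7 kb on chromosome 17 (7312661 to 7315360). Its start peak was the weakest in the ERG library, with 30 fragments against 15 in the Vector library and a scaled ratio of 1.39 (0.72 to 2.77). Summits lay 16 bp apart. The Vector-library peak also overlapped the record of NEURL4. A taller shared peak 3.83 kb from the record lay at the start of EIF5A, a translation factor gene, with 84 against 39 fragments. The third ERG-library peak, unshared, lay inside the glucose transporter gene SLC2A4 with 23 fragments.

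SIN3A, the scaffold that holds HDAC1 or HDAC2 in the SIN3 complex, was the member whose start differed between the lists. It lies on chromosome 15 from 75369379 to 75455815, on the minus strand. The ERG library had a peak of 1009 bp, from 451 to 1459 bp after the start, with 71 fragments over a background of 22.33. The Vector library had none there. Farther into the gene both libraries had a peak, with 73 fragments in the ERG library (75452554 to 75453918) against 29 in the Vector library (75453001 to 75453870), a scaled ratio of 1.74 (1.12 to 2.78). This peak lies between the listed starts of SIN3A (75455815 and 75451690), and only the wider ERG-library peak came within 1 kb of the second one. The tallest peak of the window belonged to the start of MAN2C1, a mannosidase gene 0.64 kb from the record, with 114 against 63 fragments and a ratio of 1.25 (0.91 to 1.73). An unshared ERG-library peak of 19 fragments lay 32.8 kb away at the start of COMMD4.

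The depth of the libraries differed, and its part in the missing Vector-library peak at SIN3A was not tested. Divided by the depth ratio, the 71 fragments correspond to 49.2 by the genome backgrounds and to 33.6 by strong shared peaks. With a window of 2.5 kb around starts, SIN3A counted as having a start peak in both libraries.

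The CoREST genes had the tallest start peaks of the 9 in both lists. RCOR1, which links KDM1A to HDAC1 or HDAC2, lies on chromosome 14 from 102592649 to 102730561. In the ERG library 1 peak of 2228 bp (102591485 to 102593712) spanned the start with 142 fragments. The Vector library had 2 peaks there, 102591519 to 102592295 with 54 fragments and 102592678 to 102593724 with 44. The ERG-library summit was 3 bp from that of the first, which gave a scaled ratio of 1.82 (1.32 to 2.54). The 250 bases before the start printed above were covered whole in the ERG library and not at all in the Vector library, although Vector-library peaks lay on either side. The background around this ERG-library peak was 12.5 times that of the genome, the highest at any of the 39 peaks.

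KDM1A, the demethylase of the complex, lies on chromosome 1 from 23019468 to 23083689. Its start peak was the tallest of the 9 genes in both libraries, with 147 fragments in the ERG library (23019095 to 23020302) against 76 in the Vector library (23019492 to 23020205). The scaled ratio was 1.34 (1.01 to 1.79). The ERG-library peak began before the start and the Vector-library peak 24 bp after it. The other peaks of the window lay 20.3 to 32.3 kb away inside LUZP1, a gene for a leucine-zipper protein, 3 in the ERG library against 1 in the Vector library. The shared one held 68 against 29 fragments, a ratio of 1.62 (1.04 to 2.60).

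The NuRD genes had several acetylated neighbours. CHD4, the remodelling ATPase, is on chromosome 12 from 6570082 to 6607379, on the minus strand. Its start peak, with 90 fragments in the ERG library (6606874 to 6607420) against 37 in the Vector library (6606934 to 6607407), lay at the upstream end of the record and not at the listed start, which lies 928 bp inside it. The scaled ratio was 1.68 (1.14 to 2.54), and the widths of 547 and 474 bp were the most alike of the start peaks. Toward the ends of its window lay shared peaks at GAPDH, a glycolysis gene, with 77 against 25 fragments and the largest ratio at any member, 2.13 (1.34 to 3.50), and inside ACRBP with 72 against 34. A shared peak at the start of NOP2, beside the downstream end of CHD4, had 40 against 24 fragments, a ratio of 1.15. An unshared ERG-library peak of 59 fragments lay 5.86 kb from CHD4 near the start of the uncharacterised gene LOC105369631, and another of 19 fragments inside IFFO1.

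MTA2, a subunit that holds the NuRD deacetylases, is on chromosome 11 from 62593214 to 62601865. Its start peak held 123 fragments in the ERG library (62600569 to 62601810) against 49 in the Vector library (62600869 to 62601735), with summits 10 bp apart and a scaled ratio of 1.74 (1.24 to 2.47). The window with the overlapping copies of CCGGAA lay just outside both peaks, which began 55 and 130 bp after the start. The peak at GANAB, a glucosidase gene 44 kb away, was taller in the ERG library, at 134 against 45 fragments and a ratio of 2.06 (1.46 to 2.96). The peak at the starts of EML3 and ROM1 held 57 against 24. Unshared ERG-library peaks lay at the starts of EEF1G (31 fragments), a translation elongation factor gene, and B3GAT3 (37 fragments), and between genes (27 fragments).

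**Figure D2:**
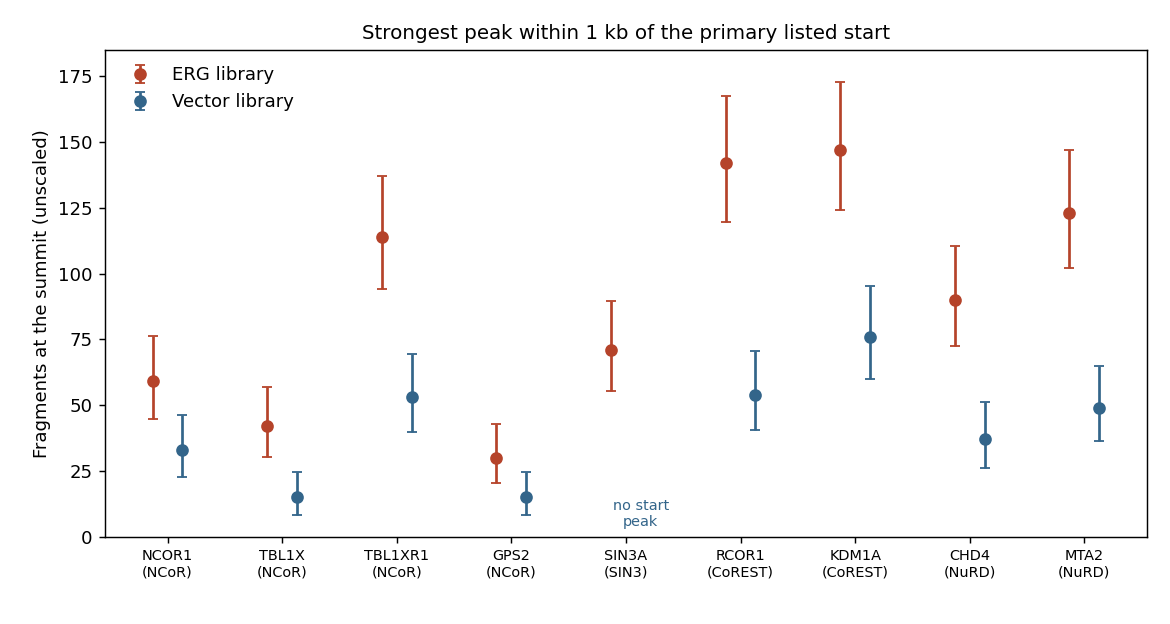
Unscaled fragments at the summit of the strongest peak within 1 kb of the primary listed start of each gene, with exact Poisson 95% intervals for counting error, for the ERG library (red) and the Vector library (blue). ERG-library values run from 30 at GPS2 to 147 at KDM1A and Vector-library values from 15 at GPS2 and TBL1X to 76 at KDM1A, and SIN3A has no Vector-library peak there.

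The order of the peaks at the primary starts was much the same in both libraries. KDM1A, RCOR1, MTA2 and TBL1XR1 formed the upper group, with 114 to 147 fragments in the ERG library and 49 to 76 in the Vector library, and neighbours in this order had overlapping counting intervals. CHD4 followed with 90 and 37 and SIN3A with 71 in the ERG library (73 at its second listed start), and NCOR1, TBL1X and GPS2 came last with 59, 42 and 30 fragments and with 33, 15 and 15. In the Vector library the interval of KDM1A (59.9 to 95.1) overlapped that of RCOR1 (40.6 to 70.5). The order is one of peak height at the summit, not of signal summed over the peak.

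At the shared peaks, the ratio between libraries depended on the depth scale. There were 21 shared ERG-library peaks at the 9 genes, and 20 had a scaled ratio above 1. In 12 of them the counting interval lay above 1, among them the EML3 peak with a lower bound that rounds to 1.00, and in none below 1. Over all 8076 shared peaks with recovered fragments, 37.8% had an interval above 1 and 0.817% below 1. The members' shared peaks were also taller, with a median of 72 ERG-library fragments against 58 over the list. Counting intervals narrow as fragments rise, so these shares are not compared at equal peak height. The median ratio was 1.49 at the members (lowest 0.91, highest 2.13) and 1.43 over all shared peaks, with an interquartile range of 1.15 to 1.73. Scaled by strong shared peaks, the medians were 1.02 and 0.98, the start peaks of NCOR1, KDM1A and GPS2 had ratios of 0.85, 0.92 and 0.95, and 0 of the 21 shared peaks had an interval above or below 1. Under this scale 413 of all 8076 had one above 1 and 602 one below. All 21 shared peaks were wider in the ERG library, by a median of 1.69 times, as were 7437 of all 8076, by 1.52 times. The members' ratios lay near those of the whole list under either scale.

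**Figure D3:**
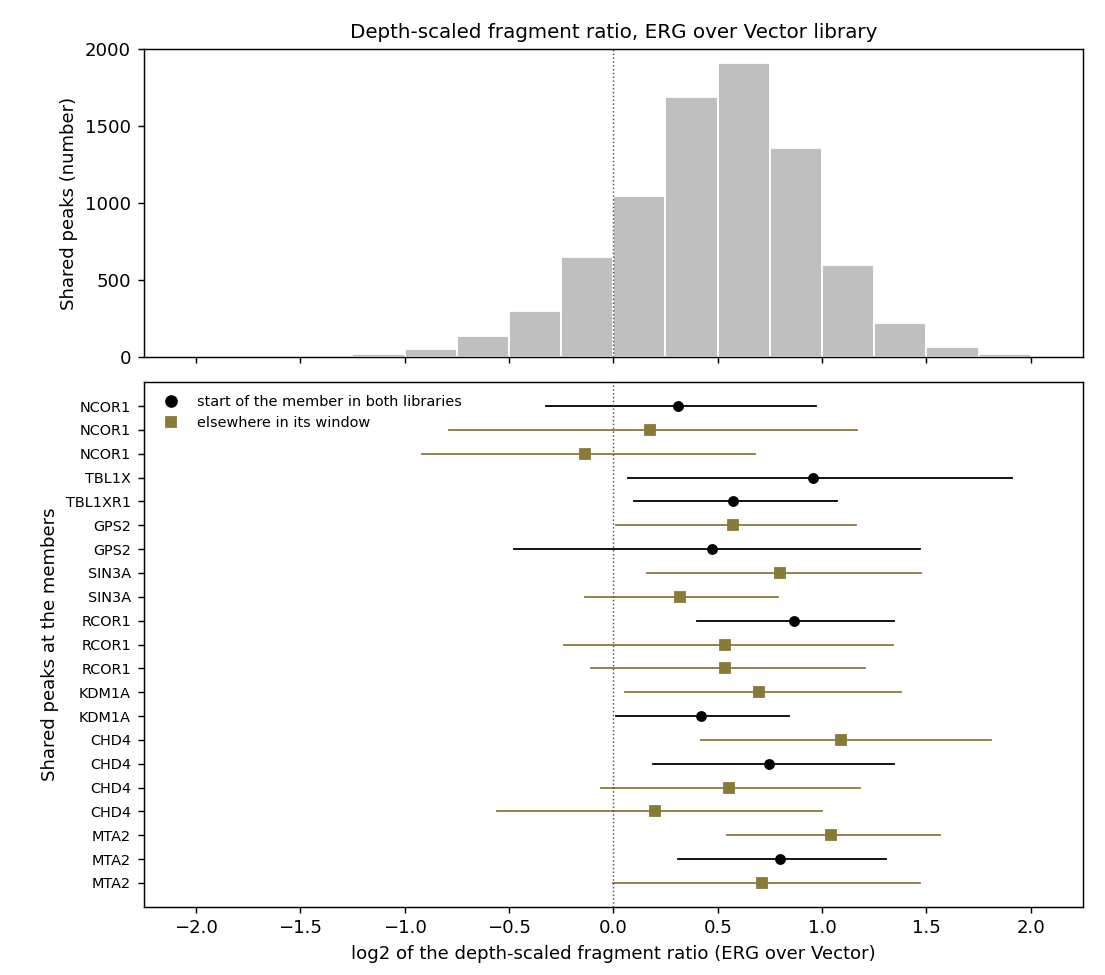
Depth-scaled fragment ratio on a log2 axis, where 0 is equal acetylation after scaling by the genome backgrounds. The upper panel counts all 8076 shared peaks and the lower panel gives the 21 shared peaks at the 9 genes with 95% counting intervals, as circles where both libraries had the peak at the member's start and squares elsewhere. The members' points run from 0.91 to 2.13 as ratios, within the bulk of the upper panel.

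The peaks found in the ERG library alone lay mostly away from the members' starts. Of its 39 peaks, 18 had no Vector-library counterpart, 46.2% (exact interval 30.1 to 62.8), against 58.9% of all ERG-library peaks. In the Vector list 2 of 24 were unshared, 8.33% (1.03 to 27), against 8.97% of the whole list. NCOR1 was the member with no unshared ERG-library peak. Of the 18, 5 lay between coding genes, 4 inside another coding gene, 4 inside the member away from its starts, 3 at the start of another coding gene and 2 at a start of the member (TBL1X and SIN3A). The 21 shared peaks lay mainly at starts, 9 at those of the members and 8 at those of neighbours. In all, 11 of the 39 lay at a start of a member. No split by position is given for the whole list, so these counts describe the 39 peaks only. The unshared peaks were weaker and narrower, with a median of 37.5 against 72 fragments and 509 against 1224 bp. Over the whole list these medians were 27 against 58 fragments and 486 against 946 bp. Divided by the depth ratio of 1.44, the unshared peaks held 9.0 to 49.2 fragments with a median of 26, while Vector-library peaks began at 8 and had a median of 27. A lower depth of the Vector library moves with this count, and its part in the count was not tested.

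RCOR1 had the most unshared peaks, 6 of its 9 in the ERG library, beside 58.9% unshared over that whole list. Before the gene lay 3 of them, at 102552622 to 102553406 (38 fragments), 102555138 to 102555675 (46) and 102585059 to 102586033 (42), the last 6.62 kb from the start. Inside the gene lay 3 more, at 102628580 to 102629107 with 59 fragments, 102647272 to 102647803 with 46 and 102717848 to 102718220 with 13. The second of these adjoined a shared peak at 102644998 to 102645997, where the ERG library had 65 fragments and the Vector library 31. The peak with 59 fragments was the strongest of the 6 and the one with 13 the weakest. At least 6 unshared peaks were found at 383 of the 20037 genes, 1.91%, and at 61 of the 2275 genes with a window of 0.8 to 1.25 times the length of that of RCOR1 (238 kb), 2.68%. RCOR1 was picked as the highest of the 9, so these single-gene shares do not measure how unusual it is. A shared peak at the other edge of the window belonged to the start of TRAF3, a signalling adaptor gene, with 46 against 22 fragments.

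**Figure D4:**
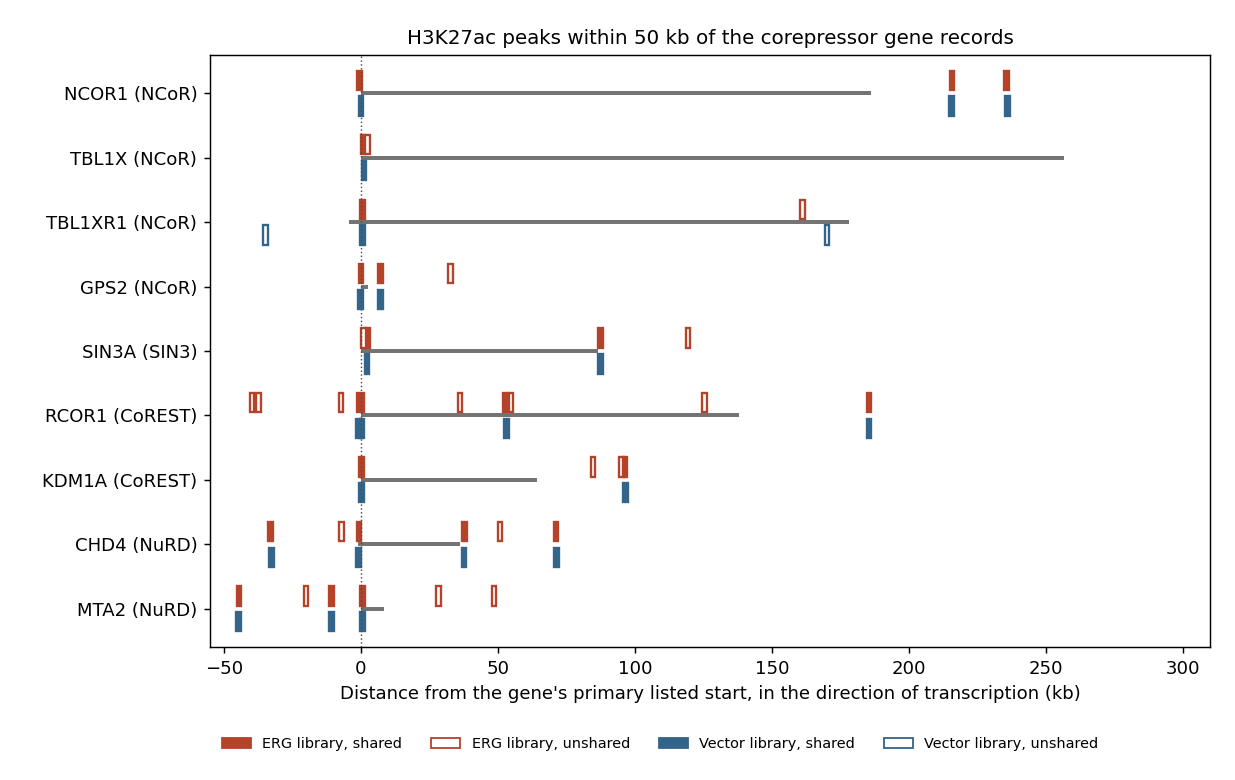
Peaks within 50 kb of each gene record, as distance from the primary listed start in kb, positive in the direction of transcription. Grey lines are the gene records, bars are peaks (drawn at a minimum width so that they can be seen), filled when shared and open when unshared. RCOR1 has 6 open ERG-library bars and TBL1XR1 has both open Vector-library bars.

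At each of the 9 genes the ERG-library peaks were longer in sum, by a median of 2152 bp, against 807 bp over all protein-coding genes and 1310.5 bp over the 5252 genes with a start peak in both libraries. The ERG-library sum was also the longer one at 98.4% of the latter. RCOR1 had the largest difference, 7503 against 2650 bp, followed by CHD4 with 5324 against 1839 bp. TBL1XR1 had nearly none, 1765 against 1735 bp, and 318 and 320 bp of the latter came from its 2 unshared peaks. These sums are not corrected for the length of the window. Per 100 kb of window, the ERG library covered from 625 bp at TBL1XR1 to 3970 bp at MTA2. The Vector library covered from 162 bp at TBL1X to 1814 bp at MTA2. The medians per 100 kb (ERG, then Vector library) were 1901 and 747 bp at the members. They were 931 and 282 bp over all protein-coding genes and 1649 and 725 bp over the 5252 genes with a start peak in both libraries. The high values at MTA2, CHD4 and GPS2 include peaks at the starts of neighbouring genes.

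Summits lay mainly just inside the genes. In the ERG library the strongest peak at the primary start had its summit downstream of it at 7 of 9 members, by a median of 223 bp over the 9, against 72.1% of 7519 genes and a median of 188 bp. In the Vector library this held at 6 of 8 members, against 75.9% of 5082 genes. RCOR1 and CHD4 were the members with the summit before the start in both libraries. At CHD4 the listed start lies 928 bp inside the record, and both summits were still within the record. The strongest peak covered the start itself at 5 of 9 members in the ERG library and at 2 of 8 in the Vector library, NCOR1 and GPS2. Over all genes these shares were 61.2% and 32.5%. Starts left uncovered, as at RCOR1 and KDM1A, were thus the more frequent form in the Vector list.

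Other subunits of the same and related deacetylase complexes are listed for context. Among 39 such genes, end peaks were found in both lists at 28, in the ERG list alone at 6 and in neither at 5. Of all protein-coding genes 30.2% had them in both and 15.6% in the ERG list alone. Those in the ERG library alone were HDAC3, the catalytic subunit of NCoR, SAP18 and SAP30L of SIN3-type complexes, ZMYM3 of CoREST-type complexes, and GATAD2B and MBD2 of NuRD. CORO2A, BRMS1, RCOR2, CHD5 and MTA3 had none, although MTA3 had a start peak in both libraries. The median scaled ratio at the 28 was 1.47, and 11 had an interval above 1. Over all genes with such a pair the median was 1.49, and 2659 of 6017 had an interval above 1. RBBP4, a histone chaperone shared by SIN3 and NuRD, had the tallest of these peaks with 197 against 58 fragments (chosen after its values were seen). HDAC1 had 68 against 30 and HDAC2 104 against 59, ratios of 1.57 and 1.22, and both were also named after their values were seen.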

How the data were processed

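The series holds 2 H3K27ac ChIP-seq libraries, 1 per group, so no spread, test or p-value between groups was possible and 95% intervals (exact binomial, exact conditional or exact Poisson) cover counting error only. The tools were Bowtie2, deepTools and MACS2 with the build hg38, per the submitters' processing notes, which do not state their roles here. Versions, settings, duplicate handling and use of an input library were not given in the sources used. The deposited lists give, per library, each peak's position and the authors' own values. These are the score, the linear fold ratio over local background, and the −log10 p-value and −log10 q-value at the summit, with lowest −log10 q-values of 1.31 and 1.32. The deposited score was 10 times the −log10 q-value without its decimals in 19662 and 9160 peaks.

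The number of fragments at a summit was computed from the deposited fold and −log10 p-value with the formulas of MACS2, assumed to hold for these lists, accepted at a relative error below 0.0001 and tested on simulated data. Without an input, this background would be the library's own. Peaks were shared when they overlapped by at least 1 bp. Ends and listed starts were used with 1 kb either side. The RefSeq tables (GRCh38.p14) gave records for 20037 protein-coding genes and starts for 15843. All 9 members matched. The planned counts used both gene ends, and starts were added once the promoter table was seen. Exons, introns and UTRs were not used here.

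The members and gene lists were chosen with earlier results of these data known. All 9 members are named, and other genes where a member's peak lies in or beside them or, among 39 other subunits, where an end peak was found in 1 library alone or in neither. HDAC1, HDAC2, RBBP4 and the erythroid genes were added after their values were seen. Python 3.11.15, pandas 2.3.3, NumPy 2.4.6, SciPy 1.17.1 and matplotlib 3.10.9 were used.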

Additional observations from a re-analysis of the deposited data

How the results depend on the processing

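No paired analysis was possible because each group held 1 library. Over the alternatives, 20 values for the group of genes stayed close to those reported and 16 moved. With a 10 kb window the 9 genes had 21 ERG-library and 15 Vector-library peaks and an excess of covered length of 10966 bp, in place of 39, 24 and 20537 bp. With only peaks nearest to a member these were 19, 13 and 10533 bp. With only as many top-ranked ERG-library peaks as the Vector library has, 20 ERG-library peaks were left, 20.0% of them unshared, with an excess of 6806 bp, and TBL1X and GPS2 had a start peak in the Vector library alone. With a −log10 q-value of at least 5 in both lists, TBL1X and GPS2 lost their Vector-library peaks, so that 2 genes had an end peak and 3 a start peak in the ERG library alone, and the excess was 21869 bp. Asking for an overlap of 50% of both peaks raised the unshared share to 71.8%, and with 2.5 kb around starts 0 genes had a start peak in the ERG library alone. The median scaled ratio at end peaks was 1.53 over 8 members, 1.05 scaled by strong shared peaks and 2.22 unscaled. Scaled by strong shared peaks, the ratios of NCOR1, SIN3A, KDM1A and GPS2 fell below 1 (0.85, 0.86, 0.92 and 0.95), and 4 of the 8 stayed above 1. Of those that fell below 1, only KDM1A had an interval above 1 when scaled by the genome backgrounds (1.01 to 1.79). Start peaks were added after the data were seen. The Vector-library start peaks of TBL1X and GPS2 rest on 15 fragments each.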
